A study of Mus musculus with 6 samples.

Results

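The genes described here were 38 enzymes, regulators and transporters of glycolysis and glycogen metabolism, taken by symbol from the 53819 genes listed in the count table. All 38 passed the filter on low counts, which left 17496 genes for testing. They were divided by the tissue each is best known in. The muscle isoforms were the 9 genes *Pfkm*, *Pgam2*, *Eno3*, *Pfkfb1*, *Pygm*, *Phka1*, *Phkg1*, *Fbp2* and *Slc2a4*. *Aldoa*, *Hk2* and *Gys1* (3 genes) are made in many tissues and are abundant in muscle. A further 21 genes were classed as widely expressed, among them *Pfkl* and *Pfkp*, although these are named for liver and platelet. The other 5 (*Aldoc*, *Eno2*, *Pfkfb2*, *Pygl* and *Pygb*) are named for brain, heart or liver.

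RNA was sequenced from flexor digitorum longus (FDL) tendons of mice at D28 after the tendon was cut and repaired, with 1 tendon in each of 6 libraries. At surgery the tendon was also cut at its junction with the muscle, and the paper reports that this junction had rejoined before the harvest. The 3 DTR libraries came from mice with Scx-Cre and a diphtheria toxin receptor behind a floxed STOP cassette (Scx-Cre+; DTR F/+). Cre removes the cassette and so switches the receptor on. The 3 WT libraries came from littermates without Cre (Scx-Cre-; DTR F/+). Mice of both genotypes were male and female, 10 to 12 weeks old, and were given 5 daily injections of diphtheria toxin (DT) between D14 and D18. Scx-Cre is not inducible, so every cell whose lineage had ever expressed *Scx*, a transcription factor of tendon cells, was open to the toxin. The comparison asks how healing tendon differs after toxin was given to deplete those cells. The paper lists as a limitation that the efficiency of depletion after surgery could not be quantified.

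Glycolysis splits glucose into pyruvate in the cytosol and yields ATP without oxygen, and lactate dehydrogenase then turns pyruvate into lactate. Glycogen is the branched store of glucose, built from UDP-glucose by glycogen synthase and cut by glycogen phosphorylase. Several of these steps have a skeletal muscle isoform and a widely used one encoded by separate genes, so the same reaction can be read in different tissues of a mixed sample. Tendon cells live in a poorly vascularised matrix, and the FDL tendon joins a muscle belly at the junction that was also cut at surgery.

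Promoter windows, the 250 bases before the RefSeq transcription start (build GRCm38.p6), were found for 37 of the 38 genes. *Slc2a4* had no entry. The E-box CAGCTG, the form bound by muscle regulatory factors such as MyoD, was in the window of 5 of 8 muscle isoforms (62.5%), in 3 of 21 widely expressed genes (14.3%) and in 14.7% of 27025 genes. The pentamer ACGTG, the core bound by hypoxia-inducible factor and other factors of its family, was in 19 of the 37 windows (51.4%) and in 18.5% of all genes. To show these letters in place, the windows of 3 muscle isoforms with the E-box and of *Pgk1*, a widely expressed gene with ACGTG, are given 5′ to 3′ on the strand of the gene. Capitals mark CAGCTG in the muscle isoforms and ACGTG, on either strand, in *Pgk1*. The windows of *Pygm* and *Fbp2* hold ACGTG as well, and there it is left in lower case.

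Pygm, chr19:6384158-6384407, plus strand: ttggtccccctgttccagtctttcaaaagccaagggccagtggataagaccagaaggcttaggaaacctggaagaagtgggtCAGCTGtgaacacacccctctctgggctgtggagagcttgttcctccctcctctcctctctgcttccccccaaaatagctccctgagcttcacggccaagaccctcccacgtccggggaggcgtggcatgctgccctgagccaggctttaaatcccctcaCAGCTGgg

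Fbp2, chr13:62858401-62858650, minus strand: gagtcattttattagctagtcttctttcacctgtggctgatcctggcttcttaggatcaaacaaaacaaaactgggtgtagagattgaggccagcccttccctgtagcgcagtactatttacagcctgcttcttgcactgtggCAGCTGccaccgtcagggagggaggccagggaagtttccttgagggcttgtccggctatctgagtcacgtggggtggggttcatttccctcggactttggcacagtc

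Phka1, chrX:102644247-102644496, minus strand: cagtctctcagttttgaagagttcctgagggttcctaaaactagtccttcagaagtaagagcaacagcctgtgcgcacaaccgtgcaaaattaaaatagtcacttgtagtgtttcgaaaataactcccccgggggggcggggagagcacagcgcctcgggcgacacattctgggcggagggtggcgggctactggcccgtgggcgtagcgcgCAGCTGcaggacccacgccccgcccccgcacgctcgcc

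Pgk1, chrX:106186850-106187099, plus strand: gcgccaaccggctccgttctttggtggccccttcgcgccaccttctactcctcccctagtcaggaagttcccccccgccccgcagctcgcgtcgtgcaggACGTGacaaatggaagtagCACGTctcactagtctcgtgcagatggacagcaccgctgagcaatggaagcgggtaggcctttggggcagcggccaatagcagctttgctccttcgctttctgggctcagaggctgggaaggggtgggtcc

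Both strands were searched for each motif, and CAGCTG reads the same on both. GCGTG, a second form of the hypoxia core, was in 22 of the 37 windows (59.5%) against 30.9% of all genes. A loose MEF2-type pattern, with any base allowed at its central positions, was in 2 (5.41%, *Ldhb* and *Phka1*) against 3.70%. A stricter MEF2 pattern was not searched for, so both shares describe the loose one. CATTCC was in 6 (16.2%) against 14.4%, and TATAAA was in 3 (8.11%) against 14.3%. The CArG box was in none against 1.62%. The share of all genes covers every gene with a window, whether or not it passed the filter on low counts. It was not matched to the members in base composition. These are matches of letters in a window and not shown binding sites.

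The libraries held between 42744138 and 48854310 counts on genes, so for genes with high counts the counting error was small beside the differences between tendons. It was a larger part of the value for *Fbp2*, which had 19, 45 and 21 counts in DTR replicates 1 to 3. Normalized counts are counts scaled by edgeR's TMM factors to the mean library size, and values of a group are listed in the order of replicates 1 to 3. *Scx* itself had 2656 ± 433 normalized counts on average in WT libraries, against 3472 ± 62.2 in DTR libraries (SD, n = 3). Transcripts of skeletal muscle differed between libraries. A list of 30 skeletal muscle genes, led by *Myh1*, *Atp2a1* and *Acta1*, held 3.05%, 2.82% and 2.23% of all counts across WT replicates 1 to 3, but 0.385%, 2.74% and 0.728% across DTR replicates 1 to 3. None of the 30 was at 0, 29 of them had a log2 fold change below 0, and the median was -1.15. In edgeR's test 0 of the 30 were at an unadjusted p under 0.05, where 11% of all tested genes were, and DESeq2 called 0. In 6 the groups did not overlap, all lower in DTR tendons, as was so for 7.84% of all tested genes. DTR replicate 2 thus stood among the WT libraries for muscle, and DTR replicates 1 and 3 stood apart. In a bulk sample, fewer cells of a type and less RNA per cell cannot be told apart.

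In DTR tendons, 28 of the 38 genes had a log2 fold change below 0, against 48.5% of all tested genes. edgeR's quasi-likelihood test with Benjamini-Hochberg adjustment called 0 of them and 0% of all genes. At an unadjusted p under 0.05 it gave 10 genes lower, where 5.45% of all genes were lower, and 1 gene higher, where 5.52% of all genes were higher. Log2 fold changes are DTR over WT with their standard error (SE), and adjusted p-values are from edgeR's test unless DESeq2 is named. DESeq2 called 2, *Hk2* (adjusted p = 0.0133) and *Fbp2* (adjusted p = 0.00966), both lower, where it called 1.53% of all genes lower and 1.12% higher. In 10 genes every DTR library was below every WT library, as was so for 7.84% of all genes, and in 1 gene, *Pygl*, every DTR library was above, as was so for 8.97%.

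The groups of genes differed in size of change. All 9 muscle isoforms were below 0, with a median of -1.27 on the log2 scale. The 3 muscle-abundant genes had a median of -0.94, the 21 widely expressed genes -0.15 with 14 below 0, and the 5 genes named for other tissues 0.20, beside a median of 0.0082 over all tested genes. By library, the median log2 ratio of the 9 muscle isoforms to their WT means was 0.21, 0.09 and -0.44 in WT, and -2.57, -0.48 and -2.02 in DTR replicates 1 to 3. The same median over the 21 widely expressed genes stayed between -0.30 and 0.09 in all 6 libraries.

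**Figure D1:**
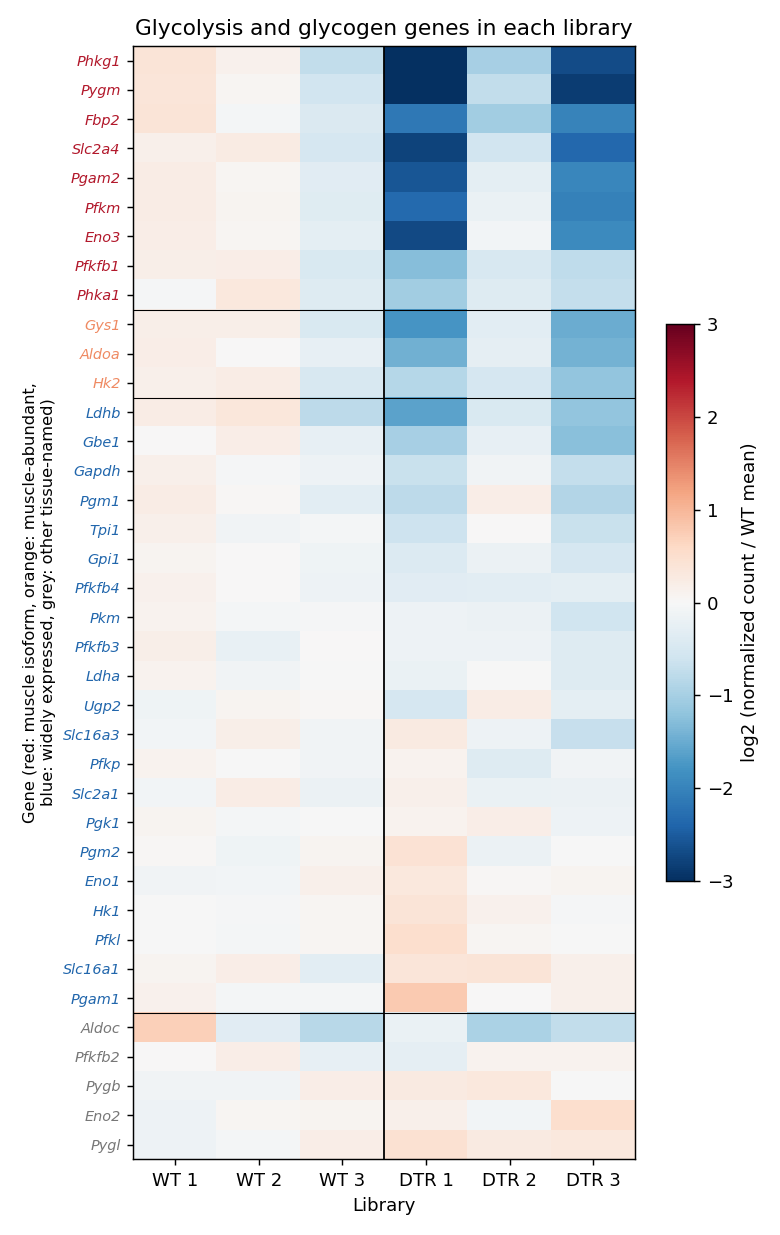
Heat map of the 38 genes (rows) in the 6 libraries (columns), as the log2 of the normalized count over the WT mean (colour scale, blue below and red above the WT mean, limited to 3 either way). Names are coloured by class. The darkest blue cells are muscle isoforms in DTR replicates 1 and 3, where the median of the class was -2.57 and -2.02, against -0.48 in DTR replicate 2. In DTR replicates 1 and 3 the muscle isoforms *Phka1* (-1.04 and -0.70) and *Pfkfb1* (-1.27 and -0.77) are paler than the muscle-abundant *Gys1* (-1.76 and -1.50).

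Glucose enters through facilitative transporters and is trapped by hexokinase. *Slc2a4*, the insulin-responsive transporter GLUT4 of muscle and fat, had 3547, 3794 and 2234 normalized counts across WT replicates 1 to 3, against 462, 2130.4 and 627 across DTR replicates 1 to 3. The groups did not overlap, although DTR replicate 2 was close to WT replicate 3, and the log2 fold change was -1.57 (SE 0.69, adjusted p = 0.485). *Slc2a1*, the widely used transporter GLUT1, lay between 1258 and 1685 in all libraries, with a log2 fold change of -0.06 and a 95% interval from -0.39 to 0.27. A list of 10 fat cell genes also had lower values in DTR tendons, with all 10 below 0 and a median of -2.27. Of these, 9 were lower at an unadjusted p under 0.05 in edgeR's test, where 5.45% of all genes were. DESeq2 called 5, where it called 1.53% of all genes lower and 1.12% higher. The list held between 0.0155% and 0.0234% of counts in WT against 0.00974% to 0.0162% in DTR libraries. The part of fat and of muscle transcripts in the value of *Slc2a4* was not tested.

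*Hk2*, the insulin-regulated hexokinase, had 3558, 3733 and 2293 normalized counts across WT and 1752, 2235 and 1399.6 across DTR libraries. Every DTR library was lower, by a log2 fold change of -0.83 (SE 0.24, 95% interval -1.42 to -0.24, edgeR adjusted p = 0.368), and DTR replicate 2 lay just under WT replicate 3. *Hk1*, the hexokinase of most tissues, had a log2 fold change of 0.17 (SE 0.11), with values of 2770.1 to 2977 in WT and 2789.9 to 3717 in DTR libraries.

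*Gpi1*, which makes fructose phosphate from glucose phosphate, had 15060.0, 14379 and 13011 normalized counts across WT and 10607, 12498 and 9898 across DTR libraries. The groups did not overlap, and the log2 fold change was -0.36 (SE 0.12, adjusted p = 0.388). Among the phosphofructokinases, which commit sugar to glycolysis, the muscle form *Pfkm* had 24965, 22852 and 16806 in WT against 4249, 18854 and 5282 in DTR libraries. DTR replicate 2 lay within the WT range and the other DTR libraries far below it, so the log2 fold change of -1.19 came with an SE of 0.66. The liver form *Pfkl* (0.20, SE 0.14) and the platelet form *Pfkp* (-0.12, SE 0.13) overlapped between groups.

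The PFKFB enzymes set the level of the sugar bisphosphate that activates phosphofructokinase. *Pfkfb4* had 1289, 1192 and 1063 normalized counts across WT and 939, 947 and 959.8 across DTR libraries, a tight DTR group below every WT library, with a log2 fold change of -0.32 (SE 0.10, adjusted p = 0.365). *Pfkfb1*, the form of liver and muscle, also did not overlap, at 133 to 208 in WT and 75.2 to 130.1 in DTR libraries (log2 fold change -0.81, SE 0.29, adjusted p = 0.415). The hypoxia-inducible form *Pfkfb3* (-0.23, SE 0.12) and the heart form *Pfkfb2* (-0.01, SE 0.16) overlapped. *Fbp2*, the muscle fructose bisphosphatase that runs the opposite reaction, was one of the least abundant members, with 118, 86.6 and 66.5 in WT and 19.6, 43.05 and 21.6 in DTR libraries. It had the smallest p of the 38 genes (log2 fold change -1.68, SE 0.40, adjusted p = 0.296 in edgeR's test).

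*Aldoa*, the aldolase of muscle and most other tissues, was the most abundant member per kilobase. It had 77542, 67506 and 56285 normalized counts across WT and 24543, 55537 and 24988 across DTR libraries. DTR replicate 2 lay just under WT replicate 3, the lowest WT library, and the log2 fold change was -0.94 (SE 0.35, adjusted p = 0.435). *Aldoc*, the brain aldolase, was near the bottom of the range at 41.1 to 134 and overlapped (-0.60, SE 0.45). *Tpi1*, which interconverts the triose phosphates, overlapped too, with 9974 and 10368 in DTR replicates 3 and 1 and 14906 to 17626 in the other libraries (log2 fold change -0.40, SE 0.19).

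In the later steps of the pathway the muscle forms *Pgam2* and *Eno3* had log2 fold changes below 0. Their widely expressed partners *Pgam1* and *Eno1* had values above 0, and the groups overlapped for each of these genes. *Gapdh*, the dehydrogenase often used as a reference gene, had 24331, 21489 and 19744 normalized counts across WT and 13815, 20187 and 13278 across DTR libraries. DTR replicate 2 lay inside the WT range, and the log2 fold change was -0.47 (SE 0.18, 95% interval -0.89 to -0.05, adjusted p = 0.429). *Pgk1*, phosphoglycerate kinase, lay between 2197 and 2807 in all libraries (0.06, 95% interval -0.18 to 0.31).

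The phosphoglycerate mutases come as a muscle gene, *Pgam2*, and a widely expressed gene, *Pgam1*. *Pgam2* had 7014, 6262 and 4727 normalized counts across WT and 1007, 4897 and 1541 across DTR libraries, so DTR replicate 2 was above WT replicate 3 (log2 fold change -1.27, SE 0.67). *Pgam1* went the other way in value, with 702 to 799 in WT and 1269, 743 and 821 in DTR libraries (0.36, SE 0.20), and its groups overlapped. DTR replicate 1, the library with the lowest *Pgam2*, had the highest *Pgam1*.

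The enolases gave the same picture. *Eno3*, the muscle enolase, had 24029.6, 21747 and 17027 normalized counts across WT and 3190.0, 19871 and 5552 across DTR libraries, a log2 fold change of -1.13 with an SE of 0.75. DTR replicate 2 was within the WT range. *Eno1*, the enolase of most tissues (0.15, SE 0.11), and *Eno2*, the neuronal one (0.21, SE 0.16), overlapped between groups.

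*Pkm*, the pyruvate kinase of muscle and most adult tissues, is spliced into forms that gene counts do not separate. It had 38853, 34750.1 and 35470.0 normalized counts across WT and 32933, 32405 and 23949.6 across DTR libraries. The groups did not overlap, and the log2 fold change was -0.29 (SE 0.15, adjusted p = 0.506). *Ldha*, the lactate dehydrogenase that favours lactate, lay between 16977 and 23584 and overlapped (-0.18, 95% interval -0.48 to 0.11).

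*Ldhb*, the lactate dehydrogenase of oxidative tissue, had 992, 1072 and 498 normalized counts across WT and 281, 625 and 377 across DTR libraries. WT replicate 3 lay below DTR replicate 2, and the log2 fold change of -0.997 had an SE of 0.41 (adjusted p = 0.46 in edgeR's test). Of the monocarboxylate transporters, which carry lactate across the membrane, *Slc16a1* had 3178 to 4507 in WT and 4397 to 5171 in DTR libraries (0.30, SE 0.14), and *Slc16a3*, the exporter of glycolytic cells, had 1389 to 2694 over both groups (-0.14, SE 0.24).

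Glycogen genes held the largest differences. *Pygm*, the muscle glycogen phosphorylase, had 28067, 22622 and 14730.0 normalized counts across WT and 2256, 13076 and 3022 across DTR libraries. Every DTR library was below every WT library, with DTR replicate 2 near WT replicate 3, and the log2 fold change was -1.83 (SE 0.81, adjusted p = 0.487). *Pygl*, the liver phosphorylase, was the only member above WT in every DTR library, with 1541, 1647 and 1968 in WT and 2349, 2068 and 2141 in DTR libraries. Its log2 fold change was 0.35 (SE 0.11, 95% interval 0.09 to 0.61, adjusted p = 0.378). *Pygb*, the brain phosphorylase, had 0.20 (SE 0.13) and overlapped.

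Phosphorylase kinase switches phosphorylase on. *Phkg1*, its muscle catalytic subunit, had 1883, 1565 and 863 normalized counts across WT and 172, 723 and 222 across DTR libraries. It had the lowest log2 fold change of the 38 genes, -1.95 (SE 0.70, adjusted p = 0.447), without overlap. *Phka1*, the muscle regulatory subunit, had 2879, 3671 and 2242 in WT and 1422, 2247 and 1798 in DTR libraries, so DTR replicate 2 and WT replicate 3 were level (-0.69, SE 0.23, adjusted p = 0.406).

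On the side of synthesis, *Gys1*, the glycogen synthase of muscle and other tissues outside liver, had 5323, 5348 and 3434 normalized counts across WT and 1387, 3762 and 1665 across DTR libraries. DTR replicate 2 was above WT replicate 3 (log2 fold change -1.05, SE 0.45). *Gbe1*, the branching enzyme, had 2175, 2472 and 1830.5 in WT and 1085, 1834 and 907 in DTR libraries, where DTR replicate 2 and WT replicate 3 were again level (-0.76, SE 0.28, adjusted p = 0.441). *Ugp2*, which makes UDP-glucose, overlapped at 8495 to 14177 (-0.15, SE 0.19).

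*Pgm1* and *Pgm2*, phosphoglucomutase genes that join glycogen to glycolysis, had log2 fold changes of -0.40 (SE 0.33) and 0.11 (SE 0.16). RefSeq lists these symbols as synonyms of each other, so which gene each row counts rests on the annotation used, which is not given in the sources used here. Rows named as copies of *Gapdh*, *Ldha*, *Pgk1*, *Pgam1* and *Aldoa*, by a ps or rs ending, each held at most 0.068% of the counts of their parent. Copies listed under other names were not searched for.

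**Figure D2:**
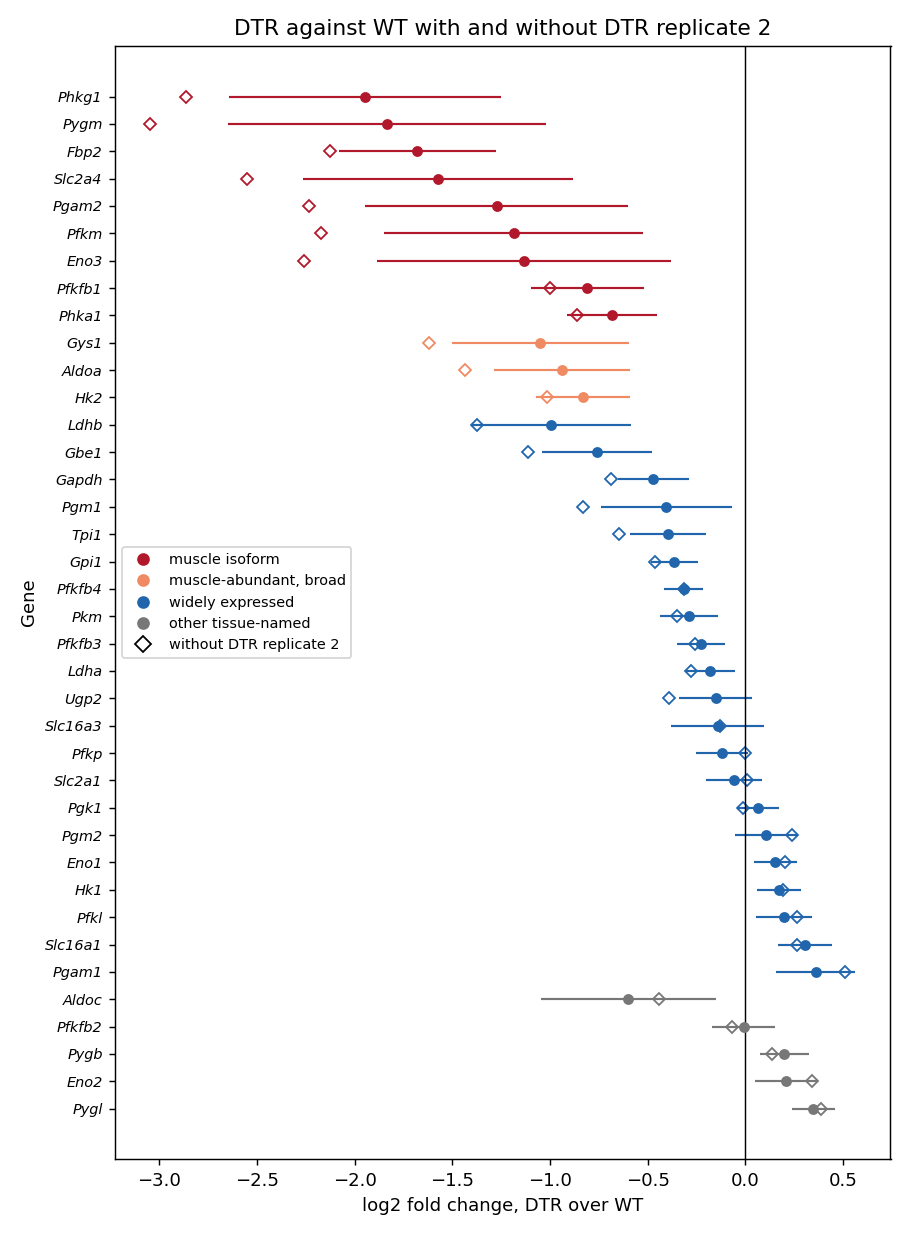
Log2 fold change of DTR over WT (horizontal axis) for the 38 genes (vertical axis), with filled points and bars for the value and its SE from edgeR over 6 libraries, and open diamonds for the value without DTR replicate 2. Muscle isoforms lie between -1.95 and -0.69, and their diamonds lie further left, with a median of -2.23.

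Levels were compared between genes per length, taken as all annotated exons of a gene merged. This length can exceed that of the main transcript, so the order depends on the annotation. Per kilobase of merged exons (GENCODE vM21, build GRCm38), the levels in WT tendons ranked *Aldoa* first (18089 ± 2866 normalized counts per kilobase, SD, n = 3) and *Eno3* next (12038 ± 2054). *Pkm* (7270.1 ± 438), *Pgam2* (7144 ± 1387), *Pygm* (6776 ± 2084), *Ldha* (6665.5 ± 444) and *Pfkm* (6449 ± 1268) followed, and these neighbours did not differ beyond their spread. *Tpi1* (5790.0 ± 535) and *Gapdh* (5288 ± 560.2) came after them. By this measure 4 of the 7 leading members in the WT samples were muscle isoforms. Without division by length, *Gapdh* had 21855 normalized counts on average in WT. *Pygm* had 21806, *Pfkm* 21541, *Eno3* 20935 and *Pgam2* 6001. In DTR tendons *Eno3* had 5485 ± 5191 per kilobase and *Pygm* 1901 ± 1876, against 5951 ± 1008 for *Pkm* and 5872 ± 759 for *Ldha*.

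Within each reaction, the share held by the muscle isoform was read per kilobase of merged exons in the same libraries. The size of these shares depends on the lengths used. By counts without division by length, *Pygm* held 80.8% ± 7.21 in WT, and 27.1%, 68.8% and 36.6% in DTR replicates 1 to 3. *Pgam2* held 88.9% ± 1.58 in WT, and 44.2%, 86.8% and 65.2% in DTR libraries on that scale. The shares that follow are per kilobase. *Pygm* held 87.5% ± 5.14 of glycogen phosphorylase in WT tendons (SD, n = 3), and 38.6%, 78.6% and 49.6% in DTR replicates 1 to 3, without overlap. *Slc2a4* held 68.5% ± 4.49 of the pair with *Slc2a1* in WT, and 22.3%, 63.1% and 32.9% in DTR libraries, and *Pgam2* held 94.97% ± 0.769 of the mutases in WT, and 65.2%, 94.0% and 81.6% in DTR libraries. In both the highest DTR library came within 1 percentage point of the lowest WT library. *Hk2* held 60.9% ± 7.38 of the hexokinases in WT and 40.3%, 50.4% and 41.8% in DTR libraries. *Phkg1*, beside *Phkg2*, held 32.9% ± 8.87 in WT and 5.92%, 21.4% and 6.78% in DTR libraries.

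For *Pfkm*, *Eno3* and *Phka1* the shares overlapped between groups. *Pfkm* held 92.5% ± 1.25 of the phosphofructokinases in WT, and 67.6%, 92.8% and 76.6% in DTR libraries. *Eno3* held 90.7% ± 2.30 of the enolases in WT, and 55.7%, 90.4% and 70.4% in DTR libraries. By counts without division by length, *Pfkm* held 79.2% ± 2.69 in WT, and 39.9%, 80.5% and 50.3% in DTR libraries. On that scale *Eno3* held 76.6% ± 4.87 in WT, and 29.3%, 75.7% and 44.2% in DTR libraries. Whether the groups overlapped was the same on both scales for every step. With 3 libraries against 3, a permutation of one share could not pass a threshold of 0.05, and no test was made.

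**Figure D3:**
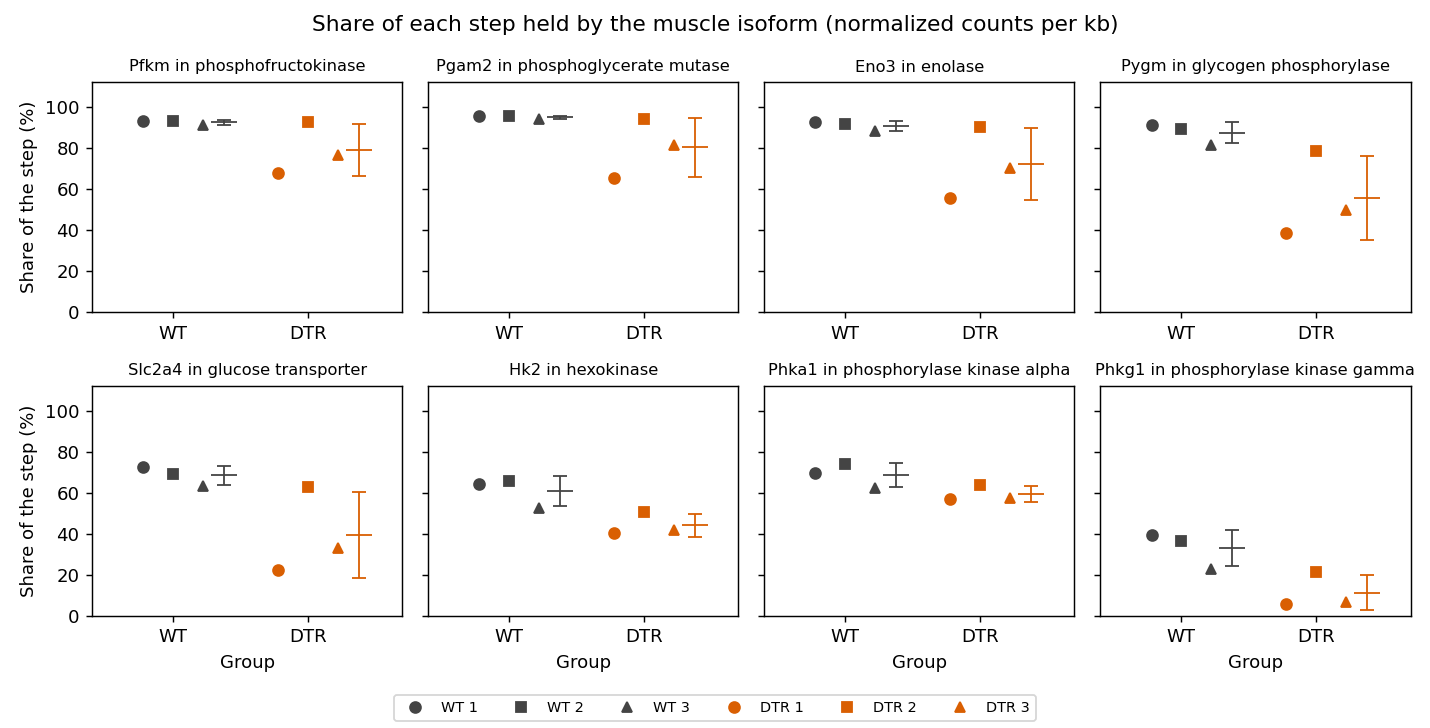
Share of each reaction step held by the muscle or muscle-abundant isoform (vertical axis, percent of normalized counts per kilobase over the isoforms of that step) in WT and DTR tendons, one panel per step. Symbols are libraries (replicates 1 to 3 as circle, square and triangle) and the bars beside them are mean ± SD; the squares of DTR replicate 2 stay near WT in most panels, as with *Eno3* at 90.4%.

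The muscle isoforms were set beside the summed skeletal muscle list in each library. *Eno3* had between 15.5 and 17.4 counts per 1000 counts of the list in all 6 libraries, and *Pgam2* between 3.83 and 5.38. *Pfkm* had between 14.7 and 22.7, highest in DTR replicate 1. These ratios did not separate the groups.

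*Pygm* was the only 1 of the 12 muscle isoforms and muscle-abundant genes whose ratio did not overlap. It had 20.1, 17.9 and 14.4 counts per 1000 of the list in WT and 12.1, 10.2 and 9.45 in DTR libraries. The ratio was not computed for other genes, so this count has no background. Whether 1 of 12 is more than chance gives was not tested. For *Pygm*, DTR replicate 2, with a muscle share like that of WT, had a ratio between those of the other DTR libraries. It was the only DTR library with a muscle sum within the WT range. Within WT the *Pygm* ratio was lowest in replicate 3, which had the lowest sum, so the ratio was not shown to be independent of muscle content. In 5 genes, the 3 muscle-abundant genes and the muscle isoforms *Phka1* and *Pfkfb1*, the ratio was above every WT library in DTR replicates 1 and 3 and below every WT library in DTR replicate 2. *Aldoa* had 55.4, 53.4 and 55.0 in WT but 131, 43.4 and 78.1 in DTR libraries. *Phka1* had 2.06, 2.90 and 2.191 in WT but 7.60, 1.76 and 5.62 in DTR libraries. The ratios of *Phkg1*, *Fbp2* and *Slc2a4* overlapped between groups, with the lowest value in DTR replicate 2.

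**Figure D4:**
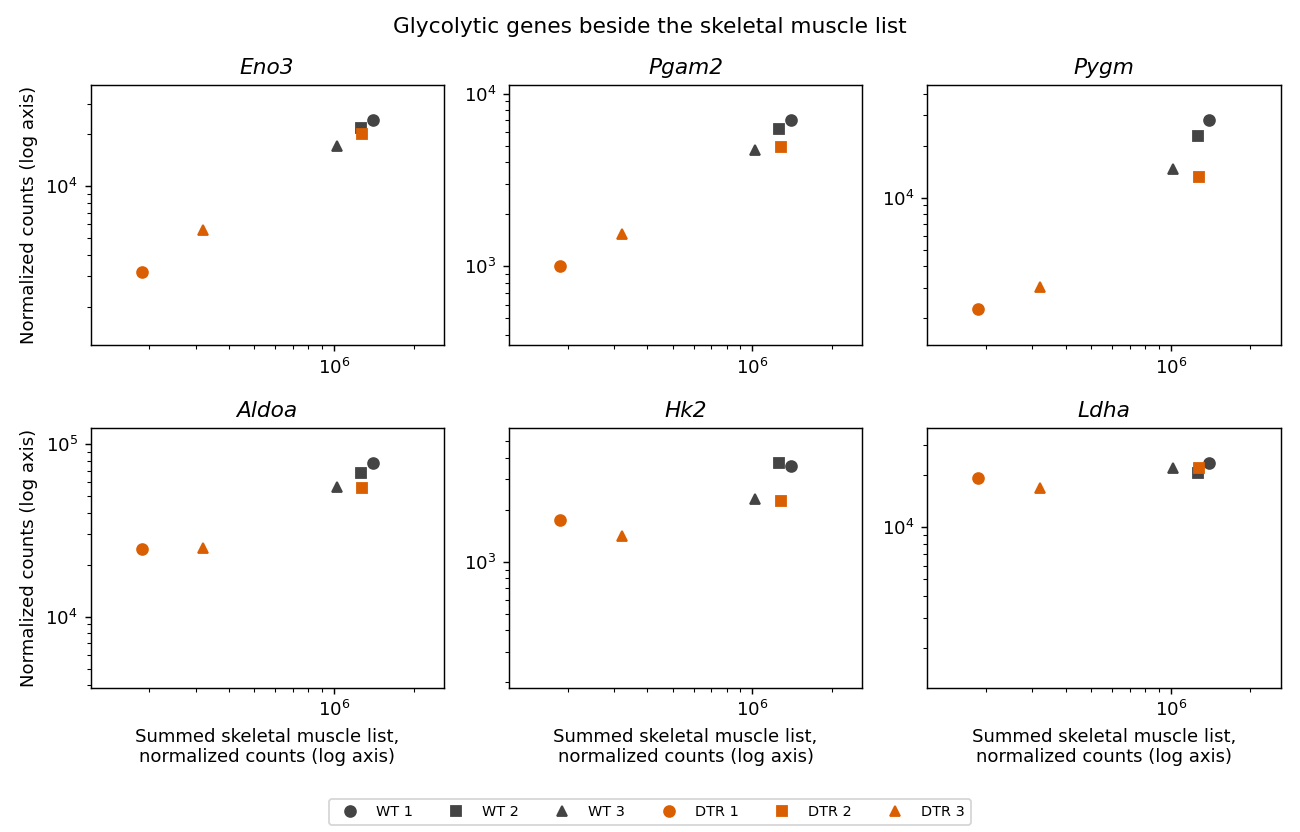
Normalized counts of 6 genes (vertical log axes) against the summed normalized counts of the 30 skeletal muscle genes (horizontal log axes), 1 symbol per library. *Eno3* and *Pgam2* follow the muscle sum across libraries, and *Ldha* changes little along the axis. *Pygm* has 9.45 to 12.1 counts per 1000 of the sum in DTR libraries, against 14.4 to 20.1 in WT. Only DTR replicate 2 lies within the WT range of sums, so the groups can be compared at a like sum in that library alone.

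Without DTR replicate 2, edgeR's quasi-likelihood test called 13 of the 38 genes, all of them lower, where it called 2.45% of all tested genes lower and 0.572% higher. The 13 were 7 of the 9 muscle isoforms (*Pfkm*, *Pgam2*, *Eno3*, *Pygm*, *Phkg1*, *Fbp2* and *Slc2a4*), 2 of the 3 muscle-abundant genes (*Aldoa* and *Gys1*) and 4 of the 21 widely expressed genes (*Tpi1*, *Gapdh*, *Gbe1* and *Pgm1*). At an unadjusted p under 0.05 it gave 20 genes lower, where 9.68% of all genes were, and 3 higher, where 6.95% were. *Pygm* then had a log2 fold change of -3.04 (SE 0.34, adjusted p = 0.0193) and *Pfkm* -2.17 (SE 0.21, adjusted p = 0.00531). *Gapdh* had -0.69 (SE 0.13, adjusted p = 0.0427). Leaving out any other library left 0 of the 38 called. These 13 calls rest on the pair of DTR libraries that were low in skeletal muscle transcripts.

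With the mean level of the skeletal muscle list as a covariate, 0 of the 38 genes and 0% of all genes were called by edgeR, and 6 genes were lower at an unadjusted p under 0.05, where 3.25% of all genes were lower, and none higher, where 3.37% were. They were *Pygm* (log2 fold change -0.81, SE 0.22), *Slc2a4* (-0.63, SE 0.17), *Phkg1* (-0.999, SE 0.30), *Pgam2* (-0.35, SE 0.13), *Fbp2* (-1.08, SE 0.43) and the widely expressed *Pfkp* (-0.37, SE 0.14). The median of the 9 muscle isoforms was -0.41 in this fit, against -1.27 without the covariate. *Eno3* had -0.14 (SE 0.14) and *Pfkm* -0.28 (SE 0.16). Muscle level and genotype were partly confounded in the 6 libraries.

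Another 82 genes of sugar and pyruvate metabolism were listed around these members, of which 72 passed the filter. At an unadjusted p under 0.05 in edgeR's test, 10 were lower and 3 higher in DTR tendons. Of all tested genes, 5.45% were lower and 5.52% higher. After adjustment edgeR called 0 and DESeq2 called 4, where DESeq2 called 1.53% of all genes lower and 1.12% higher. The median log2 fold change of the 72 genes was -0.05. Of 20 other glycogen genes tested, *Ppp1r3c*, the subunit that brings a phosphatase to glycogen, had 1819, 1577 and 1329.5 normalized counts across WT and 464, 1083 and 622 across DTR libraries, without overlap (log2 fold change -1.12, SE 0.33, edgeR adjusted p = 0.378, DESeq2 adjusted p = 0.00411). *Pgm3*, which makes a sugar phosphate for glycosylation, was higher in every DTR library, with 1198 to 1389.7 in WT and 1636 to 1795 in DTR libraries (0.45, SE 0.09, DESeq2 adjusted p = 0.0197).

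Of 11 other sugar and lactate transporter genes tested, 9 had a log2 fold change above 0. *Emb*, embigin, a partner of monocarboxylate transporters, had 6803, 7095 and 6717 normalized counts across WT and 8985, 9375 and 8603 across DTR libraries, a gap wider than either group's range (0.39, SE 0.08, edgeR adjusted p = 0.274, DESeq2 adjusted p = 0.0095). Of 9 other glycolytic enzymes tested, *Ldhd*, which oxidises D-lactate (-0.88, SE 0.26, DESeq2 adjusted p = 0.0472), and *Tigar*, a phosphatase that lowers glycolytic flux (-0.42, SE 0.13), were lower in every DTR library.

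Pyruvate entry into mitochondria was represented by 13 genes, 11 of them with a log2 fold change below 0. *Pdk2*, a kinase that switches pyruvate dehydrogenase off, had -1.01 (SE 0.39) and *Pdk3*, another such kinase, 0.30 (SE 0.13), and both overlapped. Of 14 targets of hypoxia-inducible factor outside glycolysis, 8 had a log2 fold change below 0. In edgeR's test 4 were lower at an unadjusted p under 0.05, where 5.45% of all genes were. The same 4 did not overlap between groups, where 7.84% of all genes were lower without overlap. These were *Bnip3*, a mitophagy receptor (-0.47, SE 0.14), *Egln1*, the oxygen-sensing prolyl hydroxylase (-0.29, SE 0.08), *Ndrg1* (-0.33, SE 0.11) and *Mxi1*, a Myc antagonist (-0.32, SE 0.11). Of 5 gluconeogenesis genes tested, *Pck1*, which also is a fat cell gene, had the 1 value at an unadjusted p under 0.05, lower.

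**Figure D5:**
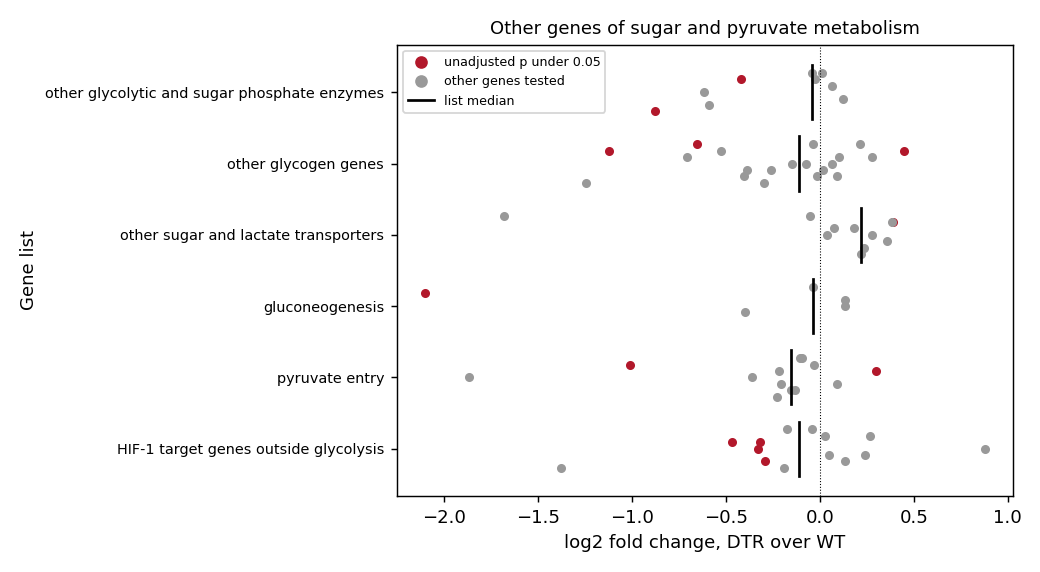
Log2 fold change of DTR over WT (horizontal axis) for the 72 tested genes of 6 lists around the members (vertical axis), 1 point per gene, red at an unadjusted p under 0.05, with black lines at list medians. The medians lie between -0.15 and 0.22, and edgeR called 0 of the 72 genes after adjustment.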

How the data were processed

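Bulk RNA-seq was made from FDL tendons of 3 DTR and 3 WT mice. The authors counted reads per gene with featureCounts and deposited raw counts, with a second deposited table, a signal of normalized counts in which each column equals its raw column over a single constant (from 0.973 to 1.06, DESeq2 1.22.1 per the submitters' processing notes). The aligner, genome build, annotation and strand setting are not given in the sources used here. Columns were matched to samples by genotype and replicate number, and 0 columns belonged to other samples.

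Tests were run on the raw counts using edgeR 4.0.16 under R 4.3.3 (filterByExpr, TMM, robust quasi-likelihood fit, genotype as the only term) and adjusted by Benjamini-Hochberg over 17496 genes at 0.05. The SE is the absolute log2 fold change over the square root of F. Normalized counts are TMM-normalized at the mean library size. Replicates were compared by chi-square (36.6 to 190 per degree of freedom), so none was counted as a duplicate. The fit was tested on simulated data. Alternatives were DESeq2 1.42.0, limma-voom and limma 3.58.1 on log2 of the deposited normalized counts with a pseudocount of 1, library size, upper quartile or RLE normalization, a minimum of 10 counts per library or no filter, a replicate block, a skeletal muscle covariate and each library left out.

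The 38 genes, their classes and all lists were chosen with earlier results of these data known. All 38 are named. Of the other pathway lists, genes with an unadjusted p under 0.05 and a mean of at least 50 normalized counts are named, at most 5 per list, and *Pck1*, under that mean, was named after its values were seen. Of each marker list the 3 most abundant genes are named. Some genes that these rules pick are not reported here. Of the listed symbols, 2 matched under an older symbol, and 1 erythroid gene was not matched. The other marker lists were keratinocyte, macrophage and myeloid, endothelial, erythroid, nerve and Schwann, and tendon. Promoter sequences are from RefSeq, and exon lengths from GENCODE vM21.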

Additional observations from a re-analysis of the deposited data

How the results depend on the processing

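With 3 libraries a group, the spread between tendons and not depth limits the precision for genes with high counts. Over all tested genes, where the fit in use called 0, DESeq2 called 466, the fit with no filter 83 and the replicate block 1, and leaving out each library gave 0 to 544, the highest without DTR replicate 2. Of the 38 genes DESeq2 called 2, and leaving out a library gave 0 to 13. The number at an unadjusted p under 0.05, 11 in the fit in use (28.9%, against 11% of all genes), was 18 with limma-voom (11.9% of all genes), 18 with the deposited normalized counts (12.1%), 6 with the muscle covariate (6.62%), and 2 (5.26%) without WT replicate 1 (7.51% of all genes) to 23 without DTR replicate 2 (16.6%) when a library was left out. It was 6 without WT replicate 2 (5.57%), 4 without DTR replicate 1 (7.26%) and 5 without DTR replicate 3 (8.53%). The median log2 fold change of the muscle isoforms was -0.41 with the covariate and -2.23 to -0.90 when a library was left out, and that of the widely expressed genes was -0.26 to -0.093. Replicate numbers did not pair the samples (correlation of deviations -0.19, -0.15 and -0.68), and the replicate block changed no call among the 38 genes, with 13 at an unadjusted p under 0.05 and a muscle isoform median of -1.59.

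The log2 fold change took the opposite sign with the muscle covariate for *Pgam1* (-0.0043), *Eno2* (-0.017), *Pfkfb2* (0.17), *Pgm1* (0.14), *Pgm2* (-0.21) and *Ugp2* (0.19). It did so for *Pfkfb2* with upper quartile normalization (0.00073). When a library was left out, *Pfkfb2* ranged from -0.12 to 0.10 (0.10 without WT replicate 2 or DTR replicate 1), *Pgm2* from -0.097 (without DTR replicate 1) to 0.24, *Slc2a1* from -0.19 to 0.066 (without WT replicate 2, and 0.0092 without DTR replicate 2), *Pgk1* from -0.013 (without DTR replicate 2) to 0.16 and *Slc16a3* from -0.41 to 0.071 (without DTR replicate 3). The causes were not tested.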

Other observations

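Marker lists of other tissues were read in the same libraries. A keratinocyte list led by *Krt10*, *Krt1* and *Perp* held 0.332%, 0.203% and 0.0101% of all counts across WT replicates 1 to 3, against 0.00453%, 0.00707% and 0.0352% across DTR replicates 1 to 3, and all 13 of its tested genes had a log2 fold change below 0 (1 at an unadjusted p under 0.05). All 5 erythroid genes tested, led by *Hbb-bs*, *Hba-a1* and *Hba-a2*, were lower at an unadjusted p under 0.05, where 5.45% of all genes were. Their median was -1.11. The nerve and Schwann list, which includes *Pmp22* and *Mbp*, had a median of -0.35 with 9 of 11 genes below 0. The macrophage and myeloid list, led by *Lyz2*, *C1qb* and *C1qa*, had a median of 0.04 with 6 of 12 genes below 0, and the endothelial list, led by *Pecam1*, *Cdh5* and *Vwf*, had -0.06 with 8 of 10 below 0.

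The tendon list, led by *Col1a2*, *Col1a1* and *Thbs4*, held 5.27% to 6.16% of the counts in WT and 5.89% to 7.26% in DTR libraries, and 10 of its 13 genes had a log2 fold change above 0, with a median of 0.21. Among fat cell genes, led by *Fabp4*, *Plin4* and *Lipe*, 8 of 10 were lower without overlap between groups, as were 7.84% of all genes. In edgeR's quasi-likelihood test 0 genes of any of these lists were called after adjustment, with 3 tendon genes higher, 9 fat cell, 5 erythroid, 3 nerve and Schwann and 1 macrophage gene lower, and 0 endothelial genes, at an unadjusted p under 0.05. Of all tested genes, 5.45% were lower and 5.52% higher at that threshold. DESeq2 called 5 fat cell, 4 erythroid, 3 nerve and Schwann, 1 keratinocyte, 1 macrophage, 1 tendon and 0 endothelial genes. It called 1.53% of all genes lower and 1.12% higher. The part of any of them in the values of the glycolytic genes was not tested.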
